A study of Homo sapiens with 4 samples.

Results

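The ULK complex is the protein kinase assembly that starts autophagy, and its genes are described here in HepG2 cells, a human liver cancer line, after isoginkgetin. Its members were chosen by name as the rows of the deposited table for ULK1, ULK2, ATG13, RB1CC1 and ATG101, and all 5 were found among the 8727 genes of that table. The series holds 2 libraries of cells given the solvent DMSO and 2 of cells treated with isoginkgetin at 20 µM over 24 h, all of polyadenylated RNA from the same unmodified line. Isoginkgetin, a biflavonoid from plants, is known to inhibit the splicing of pre-mRNA, and the title of the series is about autophagic cell death.

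In the complex, the serine/threonine kinase ULK1 or its relative ULK2 is held by the adaptor ATG13, the small partner ATG101 and the large scaffold FIP200, which the gene RB1CC1 encodes. Under nutrient supply the kinase mTORC1 phosphorylates ULK1 and ATG13 and keeps the complex idle, and the energy sensor AMPK phosphorylates ULK1 and activates it. The active complex gathers at the endoplasmic reticulum and phosphorylates the lipid kinase complex of BECN1 and other autophagy proteins, so that a phagophore can form. Much of this control acts on proteins, which were not measured.

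All values come from the authors' own comparison of the groups, which gives for each gene a log2 fold change, the mean of the normalized counts over the 4 libraries, a standard error (SE) and p-values. Values per library are not held, so the spread between libraries and the depth of each are unknown. Which group stands in the numerator of the fold change is not stated. Positive log2 fold changes were taken as higher with isoginkgetin than with DMSO, and every direction below would turn if the order were the other one. No label ties the replicates to separate cultures, so the p-values cover a spread between libraries that may be only technical. Of 9 hepatocyte markers 8 have a row (88.9%, against 43.6% of all genes tested), and all 8 were lower. Their mean normalized counts in the authors' deposited table ranged from 442 for the plasma carrier TTR to 157429 for the apolipoprotein APOB. Of 7 markers of fibroblasts, leukocytes, endothelium and keratinocytes only the endothelial PECAM1 has a row, at a mean normalized count of 129 in the authors' deposited table.

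All 5 genes of the complex were higher after isoginkgetin at an adjusted p under 0.05. Every row of the deposited table passes this threshold, so a member with a row had to pass it. The members were also chosen with earlier results of these data known. Nothing is therefore read from the count that passed, and the shares over all genes are given for scale only. Over all 20024 genes that the authors tested, 43.6% passed this threshold, 22.4% as higher and 21.1% as lower. The median log2 fold change of the 5 members was 0.47 (0.42 without ULK2), against 0.21 over the 8727 genes in the authors' deposited table. All of those genes passed the threshold, and their median absolute log2 fold change was 0.70. As a median of passing genes only, 0.21 does not measure a shift over all genes tested. With that 0.21 subtracted from every gene all 5 were still positive, at 0.14 for ULK1, 0.16 for RB1CC1, 0.26 for ATG13, 0.78 for ATG101 and 5.54 for ULK2, but the 95% interval of ULK1 then reached from −0.01 to 0.30. At an adjusted p under 0.001 all 5 still passed, against 14.5% of all genes as higher, and under Bonferroni adjustment 3 did, ATG13, RB1CC1 and ATG101, against 10.7%. By their fitted values ATG101 and ULK2 changed 1.5-fold or more, 2 of 5 against 12.2% of all genes as higher and 14.0% as lower. Only ULK2 changed 2-fold or more, 1 of 5 against 6.26% as higher. These shares count only genes that also passed at an adjusted p under 0.05, since the others have no fold change here. The rises were small for ULK1, RB1CC1 and ATG13, about 2-fold for ATG101, and of very uncertain size for ULK2. The share that passes among genes at the level of these members cannot be computed, since a gene that missed the threshold has no value here. In bulk RNA, a change in the cells that make a transcript and a change in its amount per cell cannot be told apart.

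The start regions of 4 members are shown, ULK2 with its few counts among them. They come from the RefSeq promoter table of GRCh38.p14, which covers 250 bases before to 50 bases after the annotated start. RB1CC1 was left out when the windows were selected, so its start region was not examined. The letters run 5′ to 3′ on the strand of the gene, and capitals mark matches on either strand to the motifs named below.

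ULK1: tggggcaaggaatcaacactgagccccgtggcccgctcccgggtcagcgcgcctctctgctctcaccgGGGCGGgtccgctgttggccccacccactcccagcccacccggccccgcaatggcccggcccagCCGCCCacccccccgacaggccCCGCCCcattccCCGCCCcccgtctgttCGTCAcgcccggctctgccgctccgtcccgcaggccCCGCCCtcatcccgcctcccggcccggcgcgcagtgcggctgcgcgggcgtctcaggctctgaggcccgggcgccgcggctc
ULK2: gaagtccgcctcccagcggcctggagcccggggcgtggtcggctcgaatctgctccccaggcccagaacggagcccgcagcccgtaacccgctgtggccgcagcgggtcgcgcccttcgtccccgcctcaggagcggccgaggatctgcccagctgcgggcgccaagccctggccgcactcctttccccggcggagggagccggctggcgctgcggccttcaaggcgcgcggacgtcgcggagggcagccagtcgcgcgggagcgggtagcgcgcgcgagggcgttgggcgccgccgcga
ATG13: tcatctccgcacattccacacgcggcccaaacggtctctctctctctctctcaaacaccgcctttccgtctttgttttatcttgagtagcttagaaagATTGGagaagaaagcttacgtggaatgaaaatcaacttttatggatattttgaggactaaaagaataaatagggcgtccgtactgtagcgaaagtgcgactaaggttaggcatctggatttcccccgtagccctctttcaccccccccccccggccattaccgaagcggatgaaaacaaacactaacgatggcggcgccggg
ATG101: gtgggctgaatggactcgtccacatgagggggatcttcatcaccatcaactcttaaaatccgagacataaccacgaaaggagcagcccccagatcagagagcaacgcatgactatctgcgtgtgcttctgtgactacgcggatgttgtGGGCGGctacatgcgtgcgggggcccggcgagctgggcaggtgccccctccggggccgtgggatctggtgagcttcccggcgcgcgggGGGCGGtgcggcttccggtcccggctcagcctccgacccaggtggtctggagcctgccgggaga

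The window of ULK1 lies at chr12:131894372-131894671 on the plus strand, that of ULK2 at chr17:19867887-19868186 on the minus strand, that of ATG13 at chr11:46617303-46617602 on the plus strand and that of ATG101 at chr12:52069728-52070027 on the plus strand. These coordinates are of GRCh38.p14, while the submitters' processing notes list hg19 among their builds. The kinase genes have the windows richest in G and C, with 78.3% for ULK1 and 77.0% for ULK2, against a median of 58.7% over all 35116 promoters of the table. ATG101 was at 64.7% and ATG13 at 49.0%. The sequences above thus differ widely in composition.

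The motif search covered CACGTG, the core of the element bound by TFEB, TGATGNAA, the element bound by ATF4 with C/EBP factors, GTAAACA, bound by FOXO factors, TGACG, the core element bound by CREB and ATF factors, the GC box GGGCGG and the box CCAAT. N stands for any base, both strands were searched, and none of the 6 motifs contains another. The GC box had 5 matches in the ULK1 window and 2 in that of ATG101, and 45.0% of all promoters hold at least 1. ULK1 also had 1 match to TGACG, which 24.6% of promoters hold. ATG13 had 1 match to CCAAT, on its minus strand, which 34.6% of promoters hold. The windows of the 4 genes held no match to CACGTG, TGATGNAA or GTAAACA, which occur in 7.26%, 3.62% and 3.42% of promoters, and ULK2 matched none of the 6 motifs. A match is a run of letters and not a site shown to be bound, and these windows leave out everything farther from the start.

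ULK1, the main kinase of the complex, had a mean normalized count of 2045 in the authors' deposited table. Its log2 fold change in the authors' deposited table was 0.35 (SE 0.08, adjusted p 2.96e-05), with a 95% interval of 0.20 to 0.51 from that SE. If the fold change is read as the ratio of the group means, it and the mean over 2 and 2 libraries fix those means, which come to 1796 normalized counts under DMSO and 2295 under isoginkgetin. The increase of 499 normalized counts is a 1.28-fold rise. Of the 361 other genes in the table within 1.1-fold of ULK1's mean, 56.8% were higher, and 138 had a higher log2 fold change than ULK1. Of these genes 251 had a larger change than ULK1 in either direction, and their median absolute log2 fold change was 0.49.

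ULK2, the second kinase, was barely represented. Its mean normalized count was 8.77 in the authors' deposited table, a sum of 35.1 over all 4 libraries. Per kilobase of the longest coding transcript in GENCODE 29, this is a mean normalized count of 1.46, against 385 for ULK1, a 264-fold difference in level between the kinase genes. The log2 fold change of ULK2 in the authors' deposited table was 5.75 (SE 2.71, adjusted p 0.000732), with a 95% interval of 0.44 to 11.07. The fold change is 2.12 times its SE, while the p-value of the gene stands for a normal deviate of 3.71. Interval and p-value are therefore not on one footing. Among the 65 other genes in the table within 1.1-fold of its mean, the median absolute fold change over SE was 1.70, though all passed. For ULK1 the 2 values were 4.45 and 4.50, and for ATG101 7.53 and 7.70. Whether the fold changes were shrunken towards 0 is not recorded and was not tested. Intervals, group means and fold filters take them as they stand.

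Even if every ULK2 read came from the isoginkgetin libraries, their mean could not exceed 17.5 normalized counts. The increase of ULK1 in normalized counts was 28.5 times this limit. The fitted fold of ULK2 is therefore neither a measured ratio nor a lower bound, and its size is not compared with those of the other members. Of the 65 other genes in the table within 1.1-fold of ULK2's mean, 78.5% were higher, and 8 had a higher log2 fold change than ULK2. None of the 289 other genes in the table with a mean no higher than that of ULK2 had a higher log2 fold change, and the next one was at 5.73 in the authors' deposited table. Along this upper edge the fitted value rises with the mean, with 5.53 for ARL9 at a mean of 8.10 and 5.86 for CPLX4 at 9.12. The rank therefore goes with the mean of ULK2 and is not read as a trait of the gene. Of these 289 genes 242 were higher and 47 lower. At these low counts the table thus leans towards higher genes, and the part of depth differences between libraries in that lean was not tested.

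**Figure D1:**
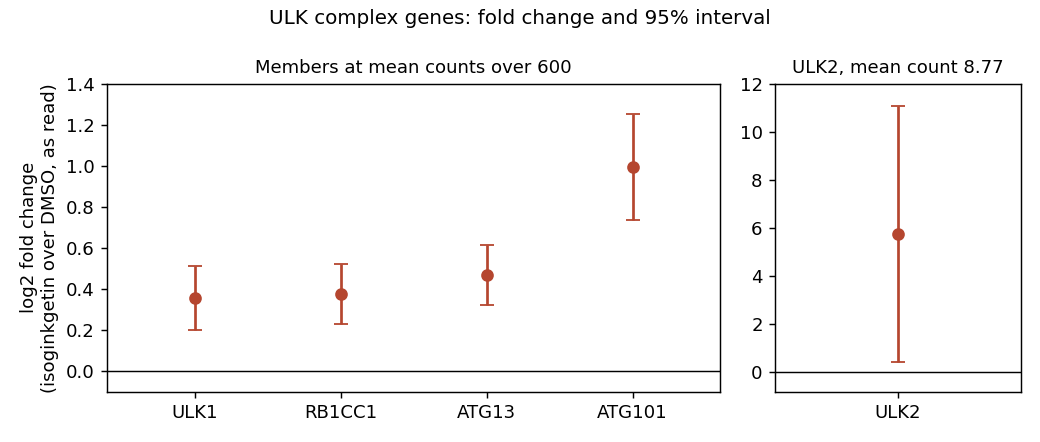
Log2 fold change (vertical axis, isoginkgetin over DMSO as read) of the 5 ULK complex genes, with bars for the 95% interval from the authors' SE; ULK2 has its own axis. The intervals of ULK1, RB1CC1 and ATG13 overlap, that of ATG101 (0.73 to 1.25) lies above all 3, and that of ULK2 spans 0.44 to 11.07.

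ATG13, the adaptor that is itself a target of mTORC1 and ULK1, was the most abundant member, with a mean normalized count of 2752 in the authors' deposited table. Its log2 fold change in the authors' deposited table was 0.47 (SE 0.07, adjusted p 8.76e-10), with a 95% interval of 0.32 to 0.61. The group means come to 2309 normalized counts under DMSO and 3194 under isoginkgetin, a 1.38-fold rise. The increase of 885 normalized counts was the highest of the 5 members. Among the 321 other genes in the table within 1.1-fold of its mean, 75.7% had a lower log2 fold change than ATG13.

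RB1CC1, the gene of the scaffold FIP200, had a log2 fold change close to that of ULK1. Its mean normalized count was 2351 in the authors' deposited table, and its log2 fold change in the authors' deposited table was 0.38 (SE 0.07, adjusted p 2.16e-06), with a 95% interval of 0.23 to 0.52. The group means come to 2047 and 2655 normalized counts for DMSO and isoginkgetin, a 1.30-fold rise. Of 355 other genes in the table within 1.1-fold of its mean, 65.1% had a lower log2 fold change.

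ATG101, which binds ATG13 and stabilises it, had the highest log2 fold change of the 4 abundant members. At a mean normalized count of 628 its log2 fold change in the authors' deposited table was 0.99 (SE 0.13, adjusted p 1.36e-13), with a 95% interval of 0.73 to 1.25. The group means come to 420 normalized counts under DMSO and 836 under isoginkgetin, a 1.99-fold rise. The interval of ATG101 did not overlap those of ULK1, RB1CC1 or ATG13, whose own intervals overlapped each other. No test of the difference between these genes was run, since they were measured in the same libraries. Of the 399 other genes in the table within 1.1-fold of its mean 47.9% were higher, their median log2 fold change in the authors' deposited table was −0.30, and 18 exceeded ATG101.

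**Figure D2:**
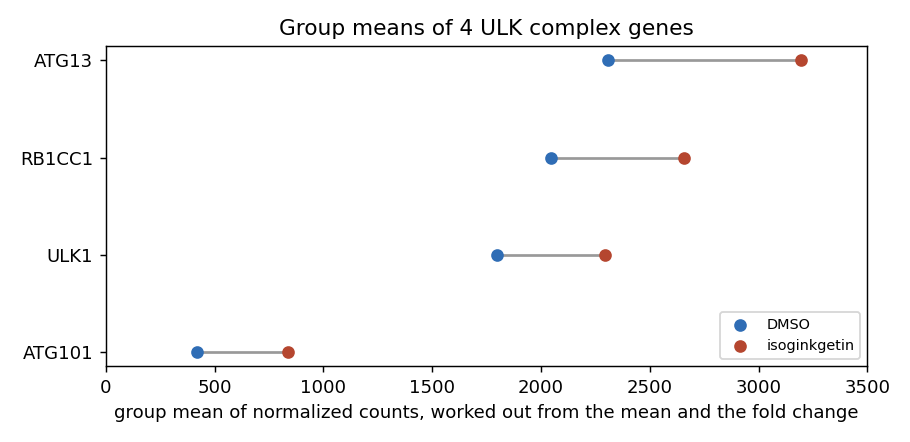
Group means of normalized counts (horizontal axis, from 0) for ATG13, RB1CC1, ULK1 and ATG101, worked out from the deposited mean and fold change; each pair of points joins DMSO and isoginkgetin, and no spread between libraries can be drawn. The isoginkgetin point is to the right of the DMSO point for each gene, with 420 and 836 for ATG101 and 2309 and 3194 for ATG13.

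Scaled to the length of the longest coding transcript in GENCODE 29, the levels of the 4 abundant members were close. Mean normalized counts per kilobase were 633 for ATG13, 436 for ATG101, 385 for ULK1 and 354 for RB1CC1, a 1.79-fold range. ATG101 has the fewest normalized counts of the 4 but the shortest transcript, at 1439 bases against 6635 for RB1CC1. The transcripts expressed in these cells may be shorter than the longest one annotated, so this order is approximate, and no spread is held by which neighbours in it could be told apart. ULK2, at 1.46 per kilobase, stood far below them all.

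**Figure D3:**
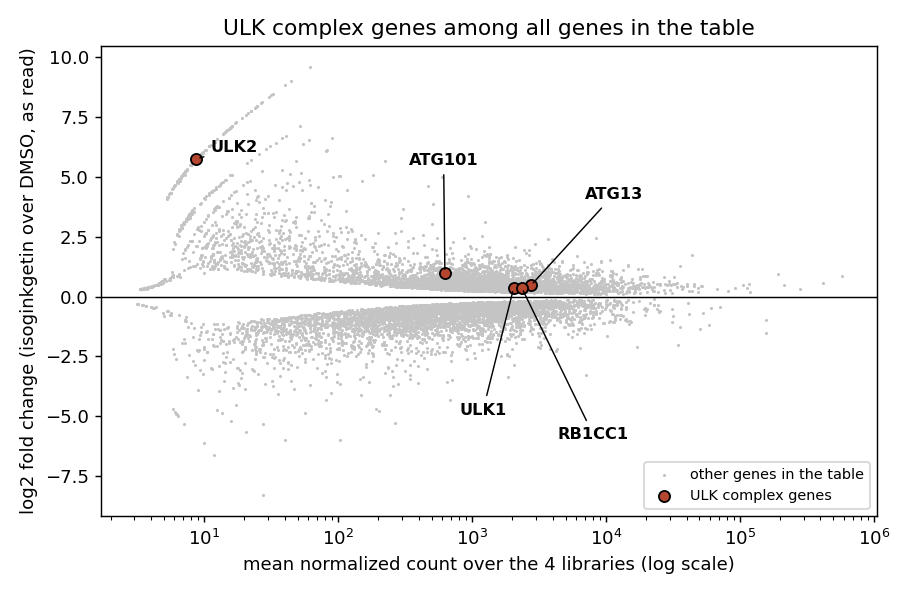
Log2 fold change (vertical axis, isoginkgetin over DMSO as read) against mean normalized count over the 4 libraries (horizontal axis, log scale) for all 8727 genes in the table, with the ULK complex genes marked. ULK1, RB1CC1 and ATG13 lie between 0.35 and 0.47 at mean counts from 2045 to 2752, ATG101 at 0.99, and ULK2 at 5.75 on the upper edge of the genes with few counts.

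Where reads are counted without regard to strand, overlapping genes bear on these values. In GENCODE 29 the exons of ATG13 share 329 of their 7001 bases with those of HARBI1, a gene on the opposite strand, and HARBI1 has no row in the table. The exons of ATG101 share 614 of their 3199 bases with the antisense gene AC025259.1, which has no row under that name either. How the authors' counting treated reads in shared exons is not given in the sources used here, and the part of such reads in the rise of ATG101 was not tested. No exon of ULK1, ULK2 or RB1CC1 overlaps an exon of another gene in that annotation.

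The values are per gene and join all transcripts of a gene. GENCODE 29 lists 7 transcripts of ULK1, 6 of them with a retained intron. It lists 30 of ATG13 with 6 such forms, 11 of ULK2 with 3, 10 of RB1CC1 with 1 and 7 of ATG101 with 2. With a compound known to act on splicing, a rise of the gene total and a rise of unspliced or partly spliced forms cannot be told apart in this table.

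Of the 10 protein-coding genes that flank a member in RefSeq, 3 have a row, and these were lower. A share of 3 in 10 is below the 43.6% of all genes tested, so nothing is read from the count. MMP17, a membrane-bound metalloprotease gene beside ULK1, was lower by a log2 fold change of −1.18 (SE 0.27) per the authors' deposited table, at an adjusted p of 6.4e-06. ARHGAP1, a GTPase-activating protein gene beside ATG13, was at −0.50 (SE 0.08) per the authors' deposited table. The gene of the nuclear receptor NR4A1, beside ATG101, was at −0.94 (SE 0.24) per the authors' deposited table.

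Of the relatives of the ULK kinases outside the complex, ULK3 and ULK4 have no row. STK36, a kinase of the same family known from Hedgehog signalling and cilia, was lower, and its log2 fold change in the authors' deposited table was −0.67 (SE 0.11, adjusted p 7.54e-09). Over these relatives and 6 lists of genes known to act on or with the complex, 7 lists with 86 genes in all, 38 were higher and 16 lower, so that 62.8% passed against 43.6% of all genes tested. The median log2 fold change of those 54 genes was 0.41, against 0.21 over all genes per the authors' deposited table, which holds only genes that passed. The lists were chosen with earlier results of these data known, and shares among genes at like counts cannot be computed. No enrichment is therefore read from these shares or from those of the single lists below.

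On the AMPK side 6 of 13 genes passed, 4 higher and 2 lower, a share near that of all genes tested. PRKAB2, a scaffold subunit of AMPK, had a log2 fold change of 0.70 (SE 0.07) per the authors' deposited table. The upstream kinase CAMKK2 was at −0.99 (SE 0.11) and STRADB, a pseudokinase partner of the AMPK kinase LKB1, at −0.61 (SE 0.10) per the authors' deposited table. The subunit PRKAG3 was at 1.20 (SE 1.56, adjusted p 0.0453) per the authors' deposited table, but its mean normalized count of 9.28 is as low as that of ULK2.

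On the mTORC1 side 9 of 13 genes passed (69.2%, against 43.6% of all genes tested), 6 higher and 3 lower. Both activators and inhibitors of the kinase were among the higher ones. SESN2, a stress-induced inhibitor of mTORC1, was at 0.98 (SE 0.06) per the authors' deposited table. RHEB, the GTPase that activates mTORC1, was at 0.87 (SE 0.09) per the authors' deposited table. The mTOR inhibitor DEPTOR was at −1.01 (SE 0.33) and RPTOR, the subunit that brings substrates such as ULK1 to the kinase, at −0.57 (SE 0.08) per the authors' deposited table. MTOR itself has no row.

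Of 12 genes whose products modify or fold the ULK1 protein, 6 were higher and 2 lower. The share that passed was 66.7%, against 43.6% of all genes tested. USP20, a deubiquitinase reported to stabilise ULK1, was at −0.96 (SE 0.19) per the authors' deposited table. The acetyltransferase gene KAT5 was at 0.50 (SE 0.19), the HSP90 co-chaperone gene CDC37 at 0.48 (SE 0.06) and the ubiquitin ligase gene TRAF6 at 0.44 (SE 0.20) per the authors' deposited table. TRAF6 passed narrowly, at an adjusted p of 0.0417 per the authors' deposited table.

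Substrates of the kinase were higher in 6 cases and lower in 1, among 13 listed, so 53.8% passed against 43.6% of all genes tested. Their median log2 fold change was 0.81 over the genes with a row. FLCN, a regulator of nutrient signalling at the lysosome, was at 1.37 (SE 0.10) per the authors' deposited table. The cargo receptor gene SQSTM1 was at 1.004 (SE 0.05), SEC16A, which organises the exit sites of the endoplasmic reticulum, at 0.92 (SE 0.06) and ATG16L1, which directs LC3 conjugation to the phagophore, had 0.81 (SE 0.10) per the authors' deposited table. BECN1, the regulatory subunit of the lipid kinase complex, was at 0.37 (SE 0.08) per the authors' deposited table, close to the values of ULK1 and RB1CC1. ATG14 and PIK3C3, further subunits of that complex, have no row.

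Genes of proteins that dock on the complex were higher in 9 cases and lower in 1, among 15 listed. The share that passed was 66.7%, against 43.6% of all genes tested. With 0.21 subtracted SMCR8 turned, which gave 8 higher and 2 lower. The median log2 fold change was 0.64 over the genes with a row. MAP1LC3B and GABARAPL1, whose products bind ULK1, ATG13 and FIP200 through short motifs, were at 1.37 (SE 0.07) and 1.19 (SE 0.15) per the authors' deposited table. CCPG1, a receptor for autophagy of the endoplasmic reticulum that binds FIP200, was at 1.04 (SE 0.18) per the authors' deposited table. The kinase gene TBK1 was at 0.97 (SE 0.11) and the cargo receptor gene TAX1BP1 at 0.73 (SE 0.07) per the authors' deposited table. These 5 genes were named for the largest absolute changes in the list. That their fitted rises were larger than those of ULK1, RB1CC1 and ATG13 thus follows in part from the choice, and no test between genes was run.

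Transcription factors known to act on autophagy genes went both ways, with 7 higher and 6 lower of 17 listed. The share that passed was 76.5%, against 43.6% of all genes tested. The highest of the 7 rises was 1.22, for DDIT3, per the authors' deposited table. The genes named next were chosen for the largest absolute changes in the list, and all of them were decreases. TFEB, the activator of lysosome and autophagy genes, was at −1.87 (SE 0.22, adjusted p 5.01e-18) per the authors' deposited table. ZKSCAN3, known as a repressor of the same programme, was at −1.74 (SE 0.29) per the authors' deposited table. The cell cycle factor E2F1 was at −1.67 (SE 0.10) and the p53 relative TP73 at −1.50 (SE 0.40) per the authors' deposited table.

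**Figure D4:**
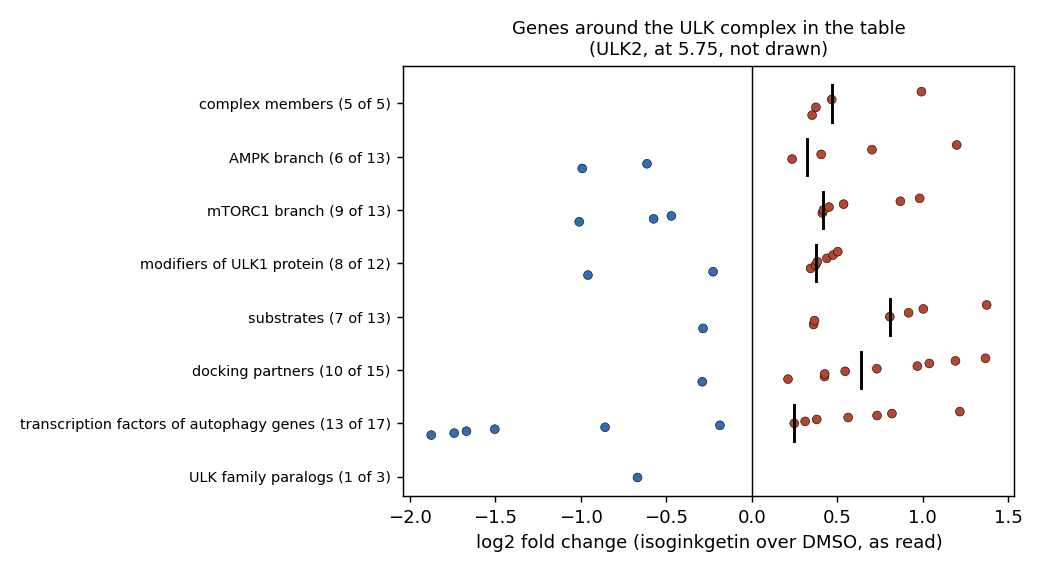
Log2 fold change (horizontal axis, isoginkgetin over DMSO as read) of each gene with a row, by list, with the number of genes in the table of those listed; each point is a gene, red for higher and blue for lower, and a black line marks the median. The complex members lie to the right of 0 (ULK2, at 5.75, is not drawn), substrates and docking partners have 1 lower gene each, and the transcription factors reach −1.87.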

How the data were processed

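RNA of 4 HepG2 libraries, 2 per group, was sequenced. The submitters' processing notes list the aligner STAR (2.7.0), the counter featureCounts and, as builds, mm10 and hg19, with no roles. Per the file headers, the authors deposited the columns of a DESeq2 results table: a signal that is the mean of the normalized counts, a log2 fold change and SE on the log2 scale, and a p-value and adjusted p-value per gene. Not given in the sources used here are the DESeq2 version, the model, any shrinkage of the fold changes, the numerator and the gene annotation. Every row has an adjusted p under 0.05.

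The number of genes tested, 20024, was recovered from the adjusted p, rank and p of each gene, a step tested on simulated data. Intervals are the fold change ± the normal deviate for 95% times the SE. Group means were solved from the mean and the fold change, assuming equal group sizes and a fold change that is the ratio of means. Depth per library is unknown. The planned edgeR fit needed counts and was replaced by the authors' per-gene results. Members and gene lists were chosen with earlier results of these data known. Named genes were the members, up to 5 genes per list of kinase relatives, substrates and docking partners and up to 4 per other list by absolute log2 fold change, and the nearest RefSeq protein-coding neighbours with a row. Alternatives were other thresholds, fold filters, centring and rebuilt fold changes. Python 3.11.15, pandas 2.3.3, scipy 1.17.1, GENCODE 29 and RefSeq GRCh38.p14 tables were used, and list genes were looked up by current or older symbol.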

Additional observations from a re-analysis of the deposited data

How the results depend on the processing

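All 5 members were called at an adjusted p under 0.001 too. With the table's median log2 fold change (0.21, over genes that passed only) subtracted, all 5 stayed positive. The 95% interval of 4 then excluded 0, ULK1 being the exception. With Bonferroni adjustment 3 members passed, without ULK1 (adjusted p 0.137) and ULK2, against 10.7% of all genes tested as higher. At 1.5-fold or more 2 members were left, ATG101 and ULK2, against 12.2% of genes as higher, and at 2-fold or more 1, ULK2, against 6.26%. All shares at a fold filter count only genes that also passed at an adjusted p under 0.05. Fold changes were also rebuilt as the normal deviate of the p-value times the SE, which keeps the deposited sign by construction. SE and p-value are not on one footing for ULK2, so these products are not taken as other estimates of size. The product was 1.02 for ATG101, and 10.06 for ULK2 in place of 5.75. With a minimum of 30 on the mean normalized count, chosen after seeing the data, 4 members were left, all higher. At 1.5-fold or more the 7 lists held 16 higher genes in place of 38, 18.6% of those listed against 12.2% of all genes tested, and 10 lower genes in place of 16, 11.6% against 14.0%. Centring turned 1 list gene, SMCR8.

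No paired analysis was possible because the table holds no values per library. For the same reason the count models, with their other size factors and their fit without a filter on low counts, and leaving out libraries were not run.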
